A study of Mus musculus with 6 samples.

Results

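Genes of the smooth muscle and muscularis mesenchyme of the gut were examined in the embryonic mouse intestine after deletion of Klf5, the gene of a Krüppel-like transcription factor made in epithelia. The members were 34 listed genes of the gut muscle wall. All 34 had exactly 1 row of the value table annotated to them alone, among 19938 genes tested. By role they comprised 13 genes of the contractile apparatus, 9 of dense bodies and adhesion sites, 4 of receptor and channel signalling, 2 regulators of contractile genes (Myocd and Srf), 4 transcription factors of the gut mesenchyme and 2 markers of pacemaker cells (Kit and Ano1).

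RNA came from whole dissected intestine segments of embryos at day E14.5, cut at a level about 1.5 cm on the anterior side of the cecum. The Klf5-deleted embryos had the genotype Klf5D/D, and the controls were Klf5wt/wtShhEGFP/Cre+, that is, wild-type for Klf5 with the ShhEGFP/Cre allele. All embryos were of a strain given as mixed (part C57Bl/6). Each group held 3 Affymetrix Mouse Gene 1.0 ST arrays, each with a pool of 2 intestines, and the values are log2 signals normalised by RMA. Shh is expressed by gut epithelium, so Cre from this allele acts mainly in epithelial cells. The labels name the Cre allele for the controls only, and the sources used here do not say how Klf5 was deleted in the Klf5D/D embryos.

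As background, the muscle wall of the gut forms from mesenchyme around the epithelial tube. Serum response factor (SRF) and its cofactor myocardin switch on contractile genes through CArG boxes, short A/T-rich elements near their start sites. The interstitial cells of Cajal, the pacemaker cells of the gut, come from the same mesenchyme and depend on the receptor KIT. Signals from the epithelium, Hedgehog among them, pattern this mesenchyme.

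In these data the contractile genes differed little between the groups. Both pacemaker markers rose in the Klf5-deleted intestine, as did 2 of 6 transcription factor genes (Myocd and Nkx3-2). Of 4 genes of receptor and channel signalling 3 rose (Chrm2, Chrm3 and Mrvi1), and the channel gene among them, Kcnmb1, did not. Of the 34 genes, 10 rose (29.4%), against 8.95% of all genes tested. None of the 34 fell in limma at an adjusted p under 0.05, against 8.58% of all genes tested, and 2 were lower at an unadjusted p under 0.05 (Des and Tagln). Among the 8 transcription factor and pacemaker genes 4 rose, with a median log2 fold change of 0.26, against 3 of the 22 contractile, dense body and adhesion genes, with a median of 0.01. The median over all genes tested was 0.02. The 3 arrays of a group did not overlap with those of the other for 16 genes that were higher (47.1%, against 20.1% of all genes) and for 3 that were lower (8.82%, against 15.9%).

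Several facts of the whole series bear on these values. Klf5 read 10.24, 10.49 and 10.34 with Klf5 deleted against 11.55, 11.74 and 11.77 in controls, and it fell by 1.33 (log2, SE 0.08, adjusted p = 9.62e-05 with limma). The sources used here do not say whether its probes lie in the deleted part. Over all rows, arrays correlated at 0.994 to 0.997 within a group and at 0.989 to 0.993 between groups. The 12 epithelial markers all fell, against 8.58% of all genes tested. Their summed signals were 47.2% to 54.7% of the control mean with Klf5 deleted against 99.3% to 100.7% in controls. The pools also differed in embryo sex: the male share estimated from Y-linked genes was 95.1% to 103% in the Klf5-deleted pools and 0%, 46.6% and 41.5% in controls 1 to 3. With that share as a covariate, 0 of the 34 genes passed in limma and 7 had an unadjusted p under 0.05. The 7 were Mrvi1, Chrm2, Chrm3, Nkx3-2, Barx1, Kit and Ano1. Of these, Barx1 was not among the 10 that rose, and Cald1, Synpo2, Flna and Myocd, which rose, were not among the 7. In that fit the median SE over all genes was 2.62 times as large, and the 10 genes that had risen kept their sign, with adjusted p between 0.122 and 0.704. Sex and genotype can therefore be only partly told apart. In whole tissue, fewer cells of a type and less RNA per cell cannot be told apart either.

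**Figure D1:**
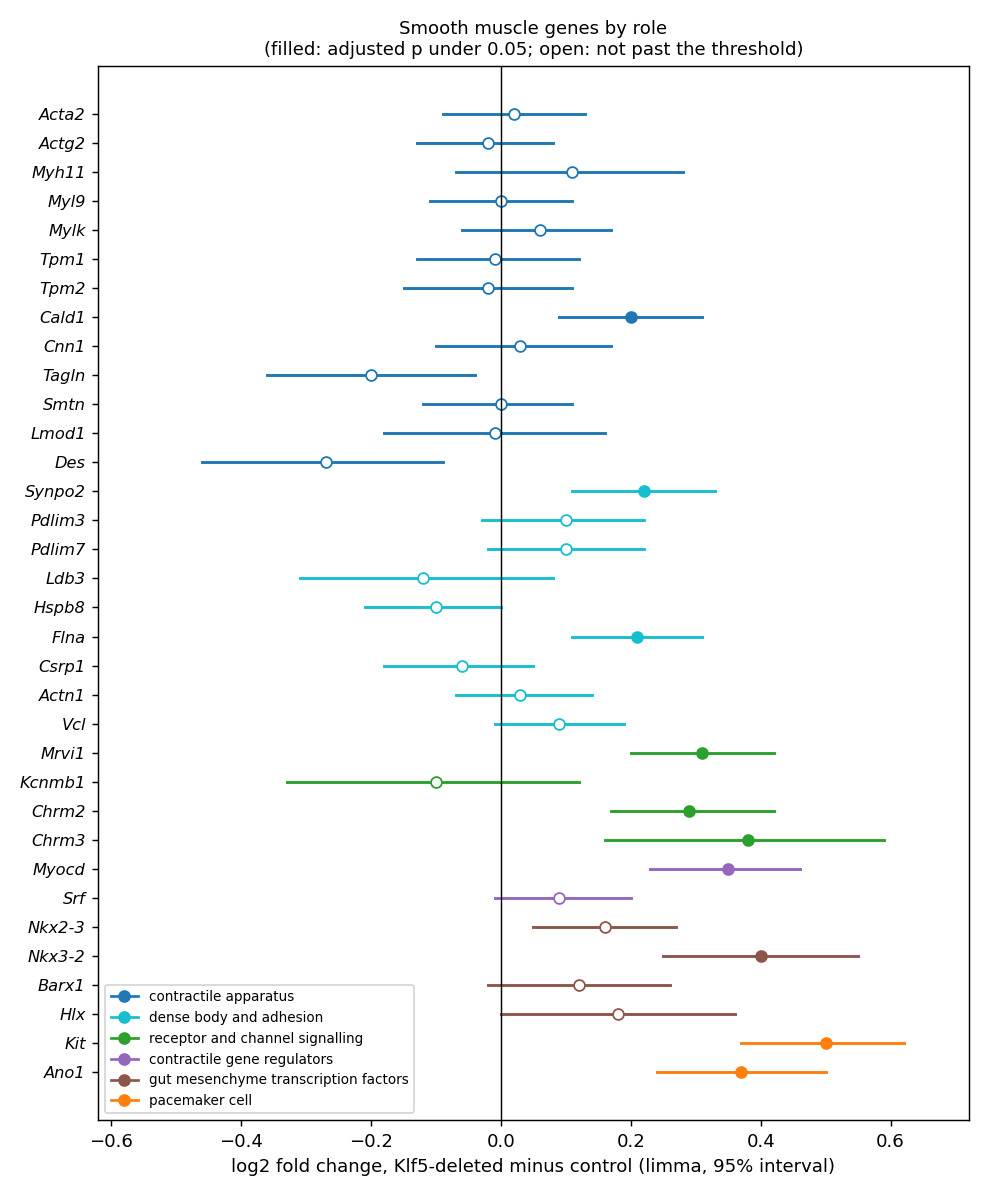
Log2 fold change of each of the 34 genes, Klf5-deleted minus control, with its 95% interval from limma (n = 3 arrays per group). Colours give the role, filled points passed an adjusted p of 0.05 and open points did not. The contractile genes lie around 0 apart from Cald1, Tagln and Des, and Kit lies farthest to the right at 0.50.

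The contractile apparatus comprises actin, myosin, tropomyosin and the proteins that regulate their sliding. Of its 13 genes 1 rose (Cald1; 7.69%, near the 8.95% of all genes tested) and 0 fell, against 8.58% of all genes, and the median log2 fold change was 0.00. With limma at an unadjusted p under 0.05 the counts were 1 higher and 2 lower. For 9 of the 13 genes the 95% interval lay inside −0.2 to 0.2, so changes above that size lay outside the interval of each. These intervals come from the fit without embryo sex. With the male share as covariate the SE of the 13 genes was 0.12 to 0.21, against 0.05 to 0.08 here, so that fit sets no such bound.

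Acta2, which encodes smooth muscle α-actin, read 13.71, 13.69 and 13.70 in replicates 1 to 3 with Klf5 deleted, against 13.62, 13.67 and 13.75 in controls 1 to 3 (log2 signal). The Klf5-deleted arrays lay within the range of the controls. The difference was 0.02 (log2, SE 0.05, 95% interval −0.09 to 0.13). Actg2, the γ-actin of visceral smooth muscle, read 13.14, 13.18 and 13.24 against 13.20, 13.24 and 13.20 (log2 signal). Its groups overlapped, with a difference of −0.02 (95% interval −0.13 to 0.08). Myl9, the regulatory light chain of smooth muscle myosin, read 13.13, 13.13 and 13.23 against 13.16, 13.17 and 13.16. Again the controls lay between the Klf5-deleted arrays, and the log2 difference was 0.00 (95% interval −0.11 to 0.11).

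These 3 genes and Csrp1 were the members with a mean log2 signal of at least 13. At such brightness an array can compress differences, and of the 99 genes tested at that level 5.05% rose and 2.02% fell. Myh11, the heavy chain of smooth muscle myosin, read 12.46, 12.71 and 12.68 with Klf5 deleted against 12.49, 12.47 and 12.57 in controls. Klf5-deleted replicate 1 was below every control and the other two above every control, so the log2 difference of 0.11 was wide (SE 0.07, 95% interval −0.07 to 0.28).

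The other genes of thin filaments and their control gave small differences. The log2 fold change was 0.06 for Mylk, which encodes the kinase that phosphorylates the light chain, −0.01 and −0.02 for the tropomyosin genes Tpm1 and Tpm2, and 0.03 for Cnn1, which encodes calponin. It was 0.00 for Smtn, the smoothelin gene, and −0.01 for Lmod1, which encodes the actin nucleator leiomodin. None of these 6 passed the test (SE 0.05 to 0.07), and in each the groups overlapped. Lmod1 read 8.58 to 8.83 over the 6 arrays.

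Cald1 encodes caldesmon, an actin-binding inhibitor of the myosin motor. It read 11.85, 11.85 and 11.77 with Klf5 deleted against 11.60, 11.61 and 11.67 in controls. The groups did not overlap, and Cald1 rose by 0.20 (log2, SE 0.05, adjusted p = 0.0253 with limma). Cald1 did not pass with each array centred on its median, nor without Klf5-deleted replicate 1 or 2 or control replicate 1 or 2.

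Des and Tagln were lower in all 3 Klf5-deleted arrays than in any control, but neither passed. Desmin, the product of Des, is the intermediate filament protein of muscle. Des read 10.87, 10.80 and 11.07 against 11.10, 11.22 and 11.24, a log2 difference of −0.27 (SE 0.08, adjusted p = 0.052 with limma). Tagln encodes transgelin, an actin-bundling protein of early smooth muscle, and read 11.33, 11.40 and 11.57 against 11.59, 11.66 and 11.64. Its log2 difference was −0.20 (SE 0.07, adjusted p = 0.0899 with limma). In both genes Klf5-deleted replicate 3 lay nearest to the controls. Leaving out that array had to widen the difference, and without it Des had an adjusted p of 0.019 and Tagln one of 0.0294 in limma. Neither gene passed without any other single array (adjusted p 0.0647 to 0.154 for Des and 0.127 to 0.23 for Tagln with limma).

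**Figure D2:**
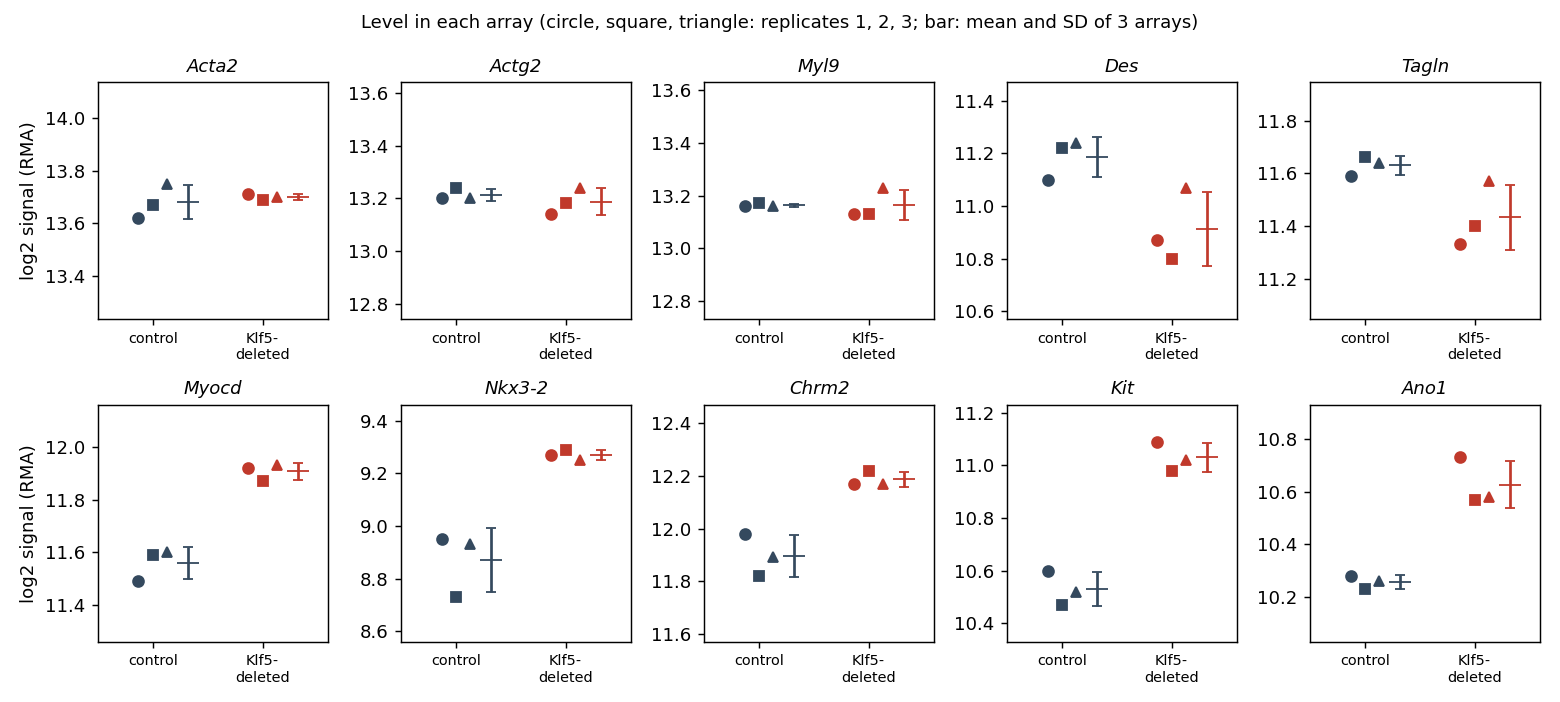
Log2 RMA signal of 10 genes in each of the 6 arrays, with the mean and SD of the 3 arrays of each group beside the points. Each panel has its own axis of equal span, so differences can be compared between panels and levels cannot. Acta2, Actg2 and Myl9 overlap between the groups, and Myocd, Nkx3-2, Chrm2, Kit and Ano1 do not.

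Dense bodies and adhesion plaques anchor actin filaments in smooth muscle. Of the 9 genes of this group, Synpo2 and Flna rose (22.2%, against 8.95% of all genes tested) and the other 7 did not pass. The count was 0 to 2 higher when each array was left out in turn. The median log2 fold change was 0.09. Synpo2, which encodes the actin-bundling protein synaptopodin-2, read 11.58, 11.61 and 11.61 with Klf5 deleted against 11.34, 11.35 and 11.45 in controls. It rose by 0.22 (log2, SE 0.05, adjusted p = 0.0193 with limma), with no overlap. Flna encodes filamin A, a crosslinker of actin, and lies on the X chromosome. It read 13.08, 13.10 and 13.10 against 12.83, 12.89 and 12.92, and it rose by 0.21 (log2, SE 0.04, adjusted p = 0.0175 with limma). Both lost their calls with each array centred on its median, and lost them when Klf5-deleted replicate 3 or control replicate 1 or 2 was left out, and Synpo2 also without Klf5-deleted replicate 2.

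Among the others, Vcl, which encodes vinculin, read 11.54 to 11.60 with Klf5 deleted against 11.46 to 11.49 in controls (log2 difference 0.09, SE 0.04). Pdlim3 and Pdlim7, adaptors with PDZ and LIM domains, were each 0.10 higher (log2, SE 0.05). The groups of these 3 did not overlap, but none passed. Actn1, the α-actinin of adhesion sites, had a log2 difference of 0.03, and Csrp1, a LIM protein of smooth muscle, one of −0.06. Hspb8, a small heat shock protein, was lower in all 3 Klf5-deleted arrays (9.32 to 9.40 against 9.44 to 9.5, log2 difference −0.10, SE 0.04) and did not pass. Ldb3, which encodes a Z-disc protein, ranged from 7.67 to 8.05 over the arrays, with a log2 difference of −0.12 (SE 0.08).

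Receptors and channels carry nerve signals into the contractile cell. Of the 4 genes of receptor and channel signalling 3 rose (75.0%, against 8.95% of all genes tested). The median log2 fold change over the group was 0.30. Chrm2 and Chrm3 encode the muscarinic receptors through which acetylcholine contracts gut muscle. Chrm2 read 12.17, 12.22 and 12.17 with Klf5 deleted against 11.98, 11.82 and 11.89 in controls, and it rose by 0.29 (log2, SE 0.05, adjusted p = 0.0105 with limma). Chrm3 read 9.36, 9.43 and 9.41 against 9.17, 9.09 and 8.80, and it rose by 0.38 (log2, SE 0.09, adjusted p = 0.0296 with limma). Neither receptor overlapped between the groups. The controls of Chrm3 spread widely, with replicate 3 lowest, and its call was lost without control replicate 2 or any 1 of the Klf5-deleted replicates.

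Mrvi1 encodes IRAG, the target of cGMP-dependent kinase that restrains calcium release from stores. It read 9.79, 9.75 and 9.78 against 9.45, 9.42 and 9.52, with no overlap, and it rose by 0.31 (log2, SE 0.05, adjusted p = 0.0043 with limma). Kcnmb1, the β-subunit of the calcium-activated potassium channel, did not pass, at 8.80, 8.49 and 8.87 against 8.87, 8.79 and 8.82. Its Klf5-deleted replicate 2 lay apart from the rest, and the log2 difference of −0.10 had a 95% interval of −0.33 to 0.12.

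Myocardin, the product of Myocd, is the cofactor through which SRF activates smooth muscle genes. Myocd read 11.92, 11.87 and 11.93 with Klf5 deleted against 11.49, 11.59 and 11.60 in controls. All 3 Klf5-deleted arrays were above all controls, and Myocd rose by 0.35 (log2, SE 0.05, adjusted p = 0.00358 with limma), that is 1.27-fold. Srf itself read 11.18, 11.07 and 11.10 against 11.02, 11.02 and 11.03. The Srf groups did not overlap either, but its log2 difference of 0.09 did not pass (SE 0.05, 95% interval −0.01 to 0.20).

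Nkx3-2 and Nkx2-3 encode homeodomain factors of the gut mesenchyme, and Barx1 and Hlx encode homeobox factors of the stomach and gut mesenchyme. Nkx3-2 read 9.27, 9.29 and 9.25 with Klf5 deleted against 8.95, 8.73 and 8.93 in controls. It rose by 0.40 (log2, SE 0.07, adjusted p = 0.00637 with limma), with no overlap. The other 3 did not pass: the log2 difference was 0.16 for Nkx2-3 (SE 0.05, adjusted p = 0.0604), 0.18 for Hlx (SE 0.08, adjusted p = 0.165) and 0.12 for Barx1 (SE 0.06, adjusted p = 0.22). Nkx2-3 passed in 4 alternatives, those with the lowest 25% or 50% of genes left out, with an intensity trend and with array weights (adjusted p = 0.0238 to 0.0425 with limma). Nkx2-3 and Hlx were higher in all 3 Klf5-deleted arrays than in any control, and Barx1 overlapped, with control replicate 1 at 8.48 beside the Klf5-deleted 8.48 to 8.49.

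Kit encodes the receptor of stem cell factor on interstitial cells of Cajal. It read 11.09, 10.98 and 11.02 with Klf5 deleted against 10.60, 10.47 and 10.52 in controls. It had the largest rise of the 34 genes, 0.50 (log2, SE 0.05, adjusted p = 0.00109 with limma), that is 1.41-fold. Ano1, the calcium-activated chloride channel of slow waves in the same cells, read 10.73, 10.57 and 10.58 against 10.28, 10.23 and 10.26. It rose by 0.37 (log2, SE 0.06, adjusted p = 0.00482 with limma), that is 1.29-fold. In both genes every Klf5-deleted array was above every control, by more than the spread within either group.

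Kit, Ano1, Myocd, Nkx3-2, Mrvi1 and Chrm2 kept their calls whichever 1 of the 6 arrays was left out. Of 17 alternatives they lost the call with the male share as covariate only. In that fit Kit had a log2 fold change of 0.67 (adjusted p = 0.122), Ano1 0.40 (adjusted p = 0.32), Nkx3-2 0.60 (adjusted p = 0.2) and Myocd 0.19 (adjusted p = 0.495). Control replicate 1, the pool with the lowest male share, was the control nearest to the Klf5-deleted mean for 5 of the 10 genes that rose (Chrm2, Chrm3, Nkx3-2, Kit and Ano1). It was the farthest for 4 (Cald1, Synpo2, Flna and Myocd) and in between for Mrvi1. The exact two-sided permutation test cannot go below 0.1 for 3 arrays against 3, which is the value for each of the 10.

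**Figure D3:**
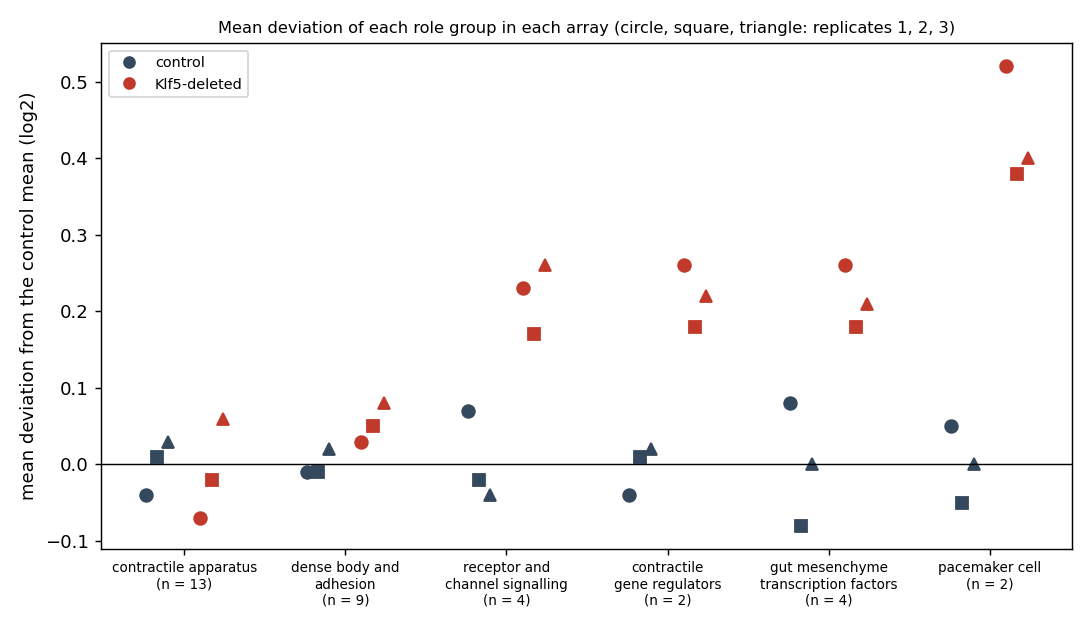
Mean over the genes of each role of the log2 deviation from the control mean, for each of the 6 arrays (circle, square and triangle for replicates 1, 2 and 3). The contractile points of both groups lie between −0.07 and 0.06, and the pacemaker points lie at 0.38 to 0.52 in the Klf5-deleted arrays.

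The contrast between the roles was also set out within each array, where a scaling factor common to all genes of that array drops out. The mean deviation from the control mean was −0.07, −0.02 and 0.06 for the contractile apparatus in Klf5-deleted replicates 1 to 3, and 0.32, 0.23 and 0.26 for the transcription factors and pacemaker genes together. The gap between both was thus 0.39, 0.25 and 0.20 (log2) with Klf5 deleted, against 0.08, −0.05 and −0.03 in controls. The 3 Klf5-deleted arrays had the larger gaps, and the groups did not overlap. The 9 dense body and adhesion genes were not part of this gap, and their mean deviation was 0.03, 0.05 and 0.08 with Klf5 deleted. The gap is a description of chosen genes, with no test.

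Promoter sequence was read next because contractile genes are known targets of SRF through CArG boxes. RefSeq windows from 250 bases before to 50 bases after the start (GRCm38.p6) were found for 30 of the 34 genes, all but Actg2, Myh11, Tagln and Myocd. A CArG box was searched as CC, 6 letters A or T, then GG, which reads the same way on both strands. It was present in 4 of the 30 (13.3%: Myl9, Ldb3, Vcl and Srf), against 1.81% of 27025 genes with a window. A box with 1 G or C among the 6 core letters, on either strand, was present in 3 of the 30 (Acta2, Myl9 and Pdlim3), against 9.69% of all. The boxes are in capitals in the stretches shown here, each 5′ to 3′ on the strand of its gene. They lie at chr17:46556195-46556264 (minus strand) for Srf, chr2:156775283-156775332 (plus) for Myl9, chr14:20929151-20929200 (plus) for Vcl and chr14:34588687-34588736 (minus) for Ldb3. The Acta2 stretch, at chr19:34255428-34255477 (minus), holds a box with 1 substituted core letter.
Srf: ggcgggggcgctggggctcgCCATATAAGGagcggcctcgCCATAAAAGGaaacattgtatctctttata
Myl9: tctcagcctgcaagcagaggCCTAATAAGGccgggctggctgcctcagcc
Vcl: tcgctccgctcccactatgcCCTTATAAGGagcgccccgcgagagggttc
Ldb3: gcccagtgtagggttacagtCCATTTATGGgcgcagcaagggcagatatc
Acta2: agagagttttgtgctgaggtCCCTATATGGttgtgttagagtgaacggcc
Srf holds 2 boxes, which begin 82 and 62 bases before its start. The box begins 161 bases before the start in Myl9, 227 in Vcl, 35 in Ldb3 and 84 in Acta2. Acta2 holds a further box with 1 substituted core letter 34 bases before its start, and Myl9 holds one 99 bases before its start, neither of them shown. None of these 5 genes passed the test, with log2 differences from −0.12 (Ldb3) to 0.09 (Srf and Vcl). Of the 9 genes that rose and have a window, 0 held a CArG box of either kind. With shares of 1.81% and 9.69% over all genes, 0 of 9 is no result about these genes. Sequence more than 250 bases before the start was not searched, and Myocd, which rose, has no window. The letters CACCC, a core of the sites that Krüppel-like factors bind, were found on either strand in 23 of the 30 windows (76.7%, against 59.8% of all). They were present in 7 of the 9 that rose (77.8%). A match is a description of letters and not a binding site.

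Genes related to the members were read from lists drawn up for this tissue. Of 30 other measured smooth muscle genes 9 rose (30.0%, against 8.95% of all genes tested) and 0 fell (against 8.58% of all genes, with 1 of the 30 lower at an unadjusted p under 0.05 in limma), with a median log2 fold change of 0.07. Prkg1, the cGMP-dependent kinase that phosphorylates IRAG, read 10.59, 10.50 and 10.58 with Klf5 deleted against 10.07, 10.03 and 10.06 in controls. The groups lay far apart beside their own spread, and Prkg1 rose by 0.50 (log2, SE 0.04, adjusted p = 0.000425 with limma). Gucy1b1, a subunit of the nitric oxide receptor guanylate cyclase, rose by 0.34 (SE 0.06), and Pde5a, which breaks down cGMP, rose by 0.28 (SE 0.05). The partner subunit Gucy1a1, chosen after its values were seen, was at 0.11 (SE 0.05) and did not pass. Dtna, which encodes the membrane scaffold dystrobrevin, rose by 0.58 (SE 0.08). Prkg1, Gucy1b1, Pde5a and Dtna kept their calls when each array was left out. The count of the list was 5 to 7 higher in those fits.

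Of 12 other measured genes of pacemaker cells 5 rose (41.7%, against 8.95% of all genes tested) and 0 fell (against 8.58%), with a median log2 fold change of 0.20. The limma count of those lower at an unadjusted p under 0.05 was 0 as well. Etv1, the ETS factor of interstitial cells of Cajal, read 11.87, 11.84 and 11.82 with Klf5 deleted against 11.44, 11.49 and 11.59 in controls. It rose by 0.33 (log2, SE 0.05, adjusted p = 0.00549 with limma), and its groups did not overlap. Cacna1h, a T-type calcium channel, rose by 0.49 (SE 0.04), and the endothelin gene Edn3, also a signal to neural crest, by 0.56 (SE 0.10). Kcnn3, a calcium-activated potassium channel also known from PDGFRα-positive interstitial cells, rose by 0.24 (SE 0.06), but it passed in 1 of the 6 fits without an array. The count was 3 to 5 higher in those fits. Kitl, the ligand of KIT, chosen after its values were seen, had a log2 difference of −0.18 (SE 0.08) and did not pass.

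Of 20 other transcription factors of the gut mesenchyme 7 rose (35.0%, against 8.95% of all genes tested) and 1 fell (5.0%, against 8.58%), with a median log2 fold change of 0.20. Hand2, a basic helix-loop-helix factor of mesenchyme and enteric neurons, rose by 0.38 (SE 0.05). Meis2 and Meis1, homeodomain cofactors, rose by 0.41 (SE 0.05) and 0.38 (SE 0.07). Gata6, a GATA factor of gut epithelium as well as mesenchyme, read 11.05, 11.01 and 10.96 with Klf5 deleted against 11.50, 11.44 and 11.46. in controls It fell by 0.46 (log2, SE 0.05, adjusted p = 0.000746 with limma), with no overlap. The count was 4 to 8 higher when each array was left out in turn.

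Of 11 immediate early targets of SRF 1 rose and 1 fell, 9.09% each, which is near the 8.95% and 8.58% of all genes tested. Ccn2 rose by 0.40 (SE 0.11, adjusted p = 0.0414 with limma) and Ier2 fell by 0.21 (SE 0.05, adjusted p = 0.0241 with limma). Ccn2 passed in 1 and Ier2 in 2 of the 6 fits without an array.

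**Figure D4:**
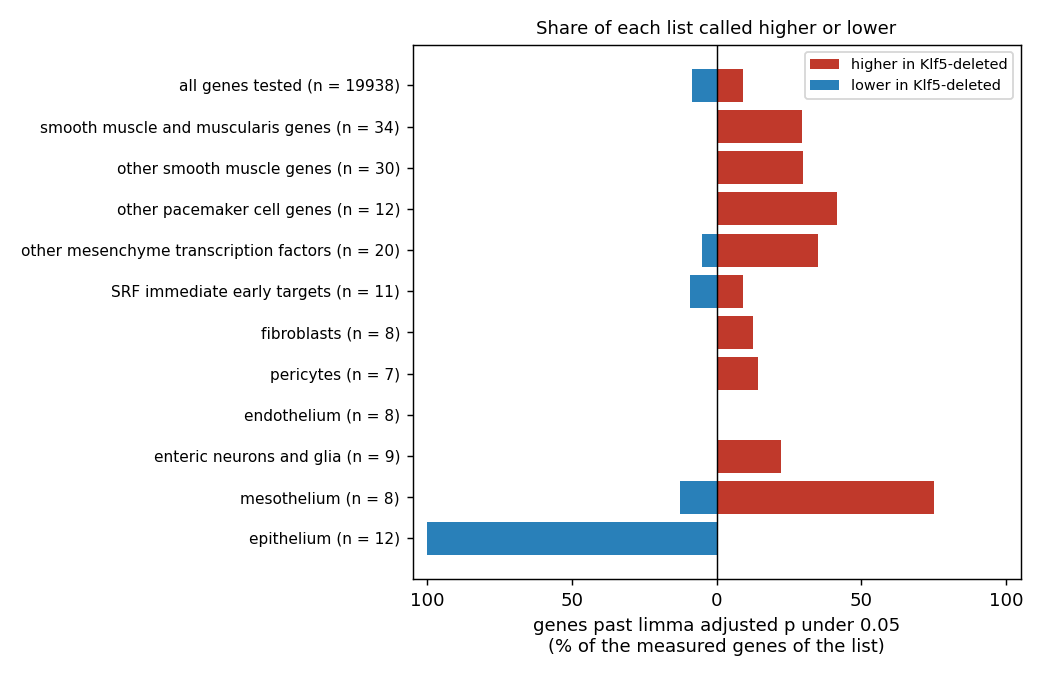
Share of the measured genes of each list that passed an adjusted p of 0.05 in limma, to the right for genes higher and to the left for genes lower in the Klf5-deleted arrays, with the number of genes in brackets. The topmost bar gives all 19938 genes. All 12 epithelial markers were lower, and the smooth muscle, pacemaker and mesenchyme factor lists had few or no genes lower.

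Markers of other cells were read beside these results. Of all genes tested 8.95% rose and 8.58% fell. Where 1 gene of 7 or 8 passed, the count is near those shares and is no result about the cell type. Fibroblast markers gave 1 of 8 higher (Pdgfra; 12.5%), and 3 were higher at an unadjusted p under 0.05 in limma. Their summed signals were 101.7% to 108.5% of the control mean with Klf5 deleted against 97.2% to 102.2% in controls. Of 9 markers of enteric neurons and glia, Sox10 and Hand2 rose (22.2%), with summed signals of 106.1% to 120.4% against 98.8% to 101.3%. Hand2 is also on the list of mesenchyme transcription factors. At an unadjusted p under 0.05 in limma, 5 of the 9 were higher and 1 lower. The lower one was Uchl1 (log2 difference −0.21, SE 0.07, no overlap), and Prph was at −0.23 (SE 0.12). Pericyte markers, part of which vascular smooth muscle shares, had 1 of 7 higher (Notch3; 0 to 1 without single arrays), at 106.5% to 118.6% against 96.6% to 102.3%. Endothelial markers had 0 of 8 past the threshold in either direction (limma, 1 higher at an unadjusted p under 0.05). Of 8 mesothelial markers, which label the outer lining of the gut, 6 rose (75.0%; 2 to 6 without single arrays) and 1 fell (12.5%). Their summed signals were 136.5% to 182.0% against 85.1% to 114.1%. None of 10 skeletal muscle markers passed (limma, 0 at an unadjusted p under 0.05), and of 8 heart muscle markers 1 fell (Myl7; 12.5%). Of 7 leukocyte markers 1 fell (0 to 1 without single arrays), with summed signals of 80.6% to 96.8% against 95.1% to 104.9%. Of 5 red cell markers 2 rose (40.0%; 0 to 2 without single arrays), at 128.7% to 176.0% against 82.5% to 118.9%. The part of these cells, of the lower epithelial signal and of embryo sex in the results on muscle genes was not tested. Centred on the mean of the 8 fibroblast markers, an alternative chosen after the data were seen, 7 of the 34 genes rose and 2 fell. These 2 were Des (adjusted p = 0.0267 with limma) and Tagln (adjusted p = 0.0481 with limma). Among the 8 markers Dpt read 5.13 to 5.49, below the 10th percentile of mean level over genes (5.509). Kit, Ano1, Myocd, Nkx3-2, Mrvi1, Chrm2 and Chrm3 were the 7.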

How the data were processed

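Per the submitters' processing notes, the authors obtained the deposited log2 signals by RMA, using Affymetrix Expression Console 1.1. Because RMA equalises the arrays' distributions, it would hide a change shared by most genes. The array annotation and genome build used by the authors are not given in the sources here. Groups and replicate numbers came from the sample titles. The labels do not say whether the pools are from different litters, so p-values reflect only how these pools spread.

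Of 35557 rows, 21789 had 1 gene symbol, 1621 had several and 12147 are unnamed here. Symbols were updated by gene ID to RefSeq (GRCm38.p6; 21698 rows matched, 91 kept their symbol). The brightest row was used for the 999 genes with more than 1. The 19938 genes were fitted with limma 3.58.1 (lmFit and eBayes, R 4.3.3) over all 6 arrays with no filter, and p-values were adjusted by the Benjamini-Hochberg method over all genes, at 0.05. In simulated data of 3 arrays against 3 over 19938 genes, limma recovered 20% of changes of 0.25 (log2), 90% of 0.5 and 100% of 1 and of 2, and 3.125% of its calls were false. Changes were simulated in a much smaller share of the genes than the 17.5% called in these data. The adjusted threshold was therefore stricter there, and these shares do not give the recovery in these data.

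All members were named, with up to 4 genes of each related list and up to 3 of each marker list by smallest p, Klf5 and the genes that mark embryo sex. Members and lists were chosen with earlier results of these data known. The counts of 1 related list are not reported here. The male share came from linear signals of Eif2s3y, Kdm5d and Uty, scaled so that the lowest array was 0% and the Klf5-deleted mean 100%, which makes those arrays their own reference. Alternatives were each array left out, the replicate number as a block, other normalization, filters, variance models and probe set rules, the male share as a covariate, centring on fibroblast markers and a threshold of 0.1.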

Additional observations from a re-analysis of the deposited data

How the results depend on the processing

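The 10 genes that rose kept their sign under all 17 alternatives, and 6 of them lost the call only with the male share as covariate. Some of these alternatives could not turn a sign. The replicate block, the filters on level, the intensity trend and the probe set rules left the fold change of each member fitted as it was. Each member has 1 row, so the probe set rules also left its values unchanged. For the replicate block, same-numbered arrays correlated at −0.145, −0.274 and −0.031 in their deviations from the group means. Deviations of the 3 arrays of a group sum to 0, which ties these correlations to one another. They cannot settle whether the numbers pair the pools. Of the 34 genes, 6 to 10 were higher and 0 to 2 lower when each array was left out, 6 were higher with the replicate block and 0 with the male share. With the lowest 25% or 50% left out, the trend, array weights or a threshold of 0.1, 11 were higher, Nkx2-3 being the one added. Lower were 1 under quantile normalization, centring on the array median or leaving out the lowest 25% of genes, and 2 with the lowest 50% left out, with the intensity trend and robust variance, with fibroblast centring and at a threshold of 0.1. These were Des, alone or with Tagln, so the contractile counts lower were the same: 1, 1, 1, 2, 2, 2, 2 and, without single arrays, 0 to 2. Contractile genes higher were 0 to 1 without single arrays and 0 under the block, median centring, the male share and fibroblast centring. Dense body and adhesion genes higher were 0 to 2 without single arrays and 0 under the same 4 settings. Genes of receptor and channel signalling and the transcription factor and pacemaker genes had 0 higher with the male share. Signs turned only for genes that had not passed. With fibroblast centring Acta2 was at −0.038, Myl9 at −0.055, Mylk at −0.001, Cnn1 at −0.024 and Actn1 at −0.024, and with median centring Acta2 was at −0.003 and Myl9 at −0.019. With quantile normalization Actg2 was at 0.001 and Tpm1 at 0.016. With array weights Tpm1 was at 0.016, Tpm2 at 0.018, Smtn at 0.031 and Lmod1 at 0.031. With the male share Acta2 was at −0.102, Mylk at −0.057, Cnn1 at −0.09, Smtn at 0.086, Ldb3 at 0.155, Actn1 at −0.068 and Kcnmb1 at 0.045. Without single arrays Acta2 ranged from −0.01 to 0.054, Myl9 from −0.031 to 0.02, Tpm1 from −0.042 to 0.021, Tpm2 from −0.064 to 0.031, Cnn1 from −0.0 to 0.082, Smtn from −0.037 to 0.017, Lmod1 from −0.058 to 0.065 and Kcnmb1 from −0.178 to 0.012. The cause was not tested. Precision is limited by 3 arrays a group, and folds may be understated for Ldb3 and Barx1, the 2 members below the median level of all genes.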

Other observations

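Some related genes belong in no comparison of the muscle wall. Of 12 measured genes of TGF-β signalling, which acts on mesenchyme and its matrix, 5 rose (41.7%, against 8.95% of all genes tested) and 0 fell in limma (against 8.58%, with 0 lower at an unadjusted p under 0.05), with a median log2 fold change of 0.19. Ltbp1, which stores latent TGF-β in the matrix, read 11.01, 11.02 and 11.00 with Klf5 deleted against 10.50, 10.57 and 10.60 in controls. It rose by 0.45 (SE 0.04, adjusted p = 0.000674 with limma). The ligand genes Tgfb2 and Tgfb3 rose by 0.58 (SE 0.08) and 0.48 (SE 0.10), and the receptor gene Tgfbr1 by 0.26 (SE 0.04). The count was 3 to 6 higher when each array was left out in turn.

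Paralogs of the members, most of them non-muscle forms, moved in both directions, with 3 of 17 higher (17.6%, against 8.95% of all genes) and 4 lower (23.5%, against 8.58%) and a median of 0.03. Myh14, a non-muscle myosin heavy chain of epithelia, fell by 0.67 (SE 0.05, adjusted p = 0.000252 with limma), and Smtnl2, a relative of smoothelin, fell by 0.37 (SE 0.05). Myh10, another non-muscle myosin heavy chain, rose by 0.40 (SE 0.05), and Flnc, the filamin of striated muscle, rose by 0.45 (SE 0.07).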
